A study of Mastomys natalensis with 4 samples.

Results

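Elastin, fibulins 1 and 2, lysyl oxidase, periostin, tenascin C, SPARC, decorin and lumican are secreted proteins of connective tissue, and their transcripts are described here in the stomach lining of Mastomys natalensis, an African rodent. The list named 10 genes. Members were the probe sets (groups of short probes for 1 transcript) of mouse U74 Affymetrix arrays whose only gene symbol in the platform annotation was one of these names. The rule found 9 of the 10 genes on 15 of 12422 probe sets, controls apart, and fibrillin 1 (Fbn1) was not analysed here. Total RNA of gastric mucosa came from 4 samples, all treated with loxtidine (loxitidine in the labels), which blocks the histamine H2 receptor and so acid secretion. Of these, 2 had been treated for 8 weeks, a stage that the labels call hyperplasia of enterochromaffin-like (ECL) cells, the histamine-releasing endocrine cells of this lining, and 2 for 16 weeks, called neoplasia of these cells. Untreated animals were not analysed here, and treatment time and lesion stage changed together. Whether each sample was 1 animal or a pool, and how old the animals were, is not given in the labels used here, so the spread between the 2 samples of a group may be technical. The members were picked with the 16-week against 8-week values already known. Their values are therefore a description, with differences and errors but no test.

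An elastic fibre has a core of cross-linked elastin laid on a scaffold of fibrillin microfibrils, with fibulins at the contact between them. Lysyl oxidase oxidises lysines of elastin and collagen, from which the cross-links form. Matricellular proteins such as tenascin C, SPARC and periostin sit in the matrix and act mainly on how cells adhere to it and how it is assembled. Decorin and lumican are small leucine-rich proteoglycans that bind collagen fibrils and regulate their thickness. In the stomach wall these proteins come mostly from fibroblasts, smooth muscle cells and cells of blood vessels, and elastic fibres are found above all in vessel walls and among muscle bundles.

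Intensities are the authors' deposited linear values, in arbitrary units. Values under 12.15, the floor used here for signal too dim to rank, were set to it before differences were taken on the log2 scale, 16 weeks minus 8 weeks, each with its standard error (SE) for n = 2 samples per group from limma, fitted over all tested probe sets. A probe set was tested if at least 2 of the 4 arrays lay above the floor, which held for 7883 probe sets of all and for 12 of the 15 members. The mouse probes may pair imperfectly with Mastomys RNA, so a transcript with a dim signal was not necessarily rare. The brightest of 11 gastric mucosa markers were the proton pump subunit Atp4a, between 4034 and 5304 in all samples, and the surface cell peptide Tff1, between 4094 and 4910. Others of that list were far dimmer. Array medians lay between 15.4 and 19.2, and 55.3% to 62.4% of probe sets exceeded the floor. The number of arrays limits the precision.

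Elastin read lower at 16 weeks on both of its probe sets, by the largest amount of any member. On the brighter one elastin (Eln) gave intensities of 130 and 142 at 8 weeks and 29.5 and 30.1 at 16 weeks. The groups stood far apart, and the samples within each were close: sample 2 exceeded sample 1 by 0.13 on the log2 scale at 8 weeks and by 0.03 at 16 weeks. The difference was -2.19 ± 0.23 (SE), a 4.56-fold lower intensity at 16 weeks. Of 5864 tested genes, 6 had a more negative difference. The second Eln probe set was dimmer, at 34.4 and 21.9 against 2.5 and 13.8. Here too both 16-week samples lay below both 8-week samples, although 16-week sample 1 was under the floor, and the difference was -1.08 ± 0.31, a lower bound in size (-1.72 with a lower floor of 5.05). In such bulk RNA, fewer cells that make a transcript and less of it in each cell cannot be told apart.

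Fibulin 1 (Fbln1), a glycoprotein that binds elastin and fibronectin, was the brightest member. On its brightest probe set the 8-week samples gave 338 and 366 and the 16-week samples 334 and 285. The groups barely separated, with a gap from 334.2 to 337.5, and the difference of -0.19 ± 0.24 was smaller than its error. Its next brightest probe set read 200 and 199 against 155 and 121, a difference of -0.54 ± 0.26. The third read 39.2 and 40.7 against 31.8 and 18.7, a difference of -0.71 ± 0.33. All 3 had 16-week sample 2 lowest, and at 16 weeks the samples differed from each other more than at 8 weeks: sample 2 over sample 1 was -0.23, -0.36 and -0.77 on the 3 probe sets. The dimmest Fbln1 probe set exceeded the floor on 1 array and was not tested.

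Fibulin 2 (Fbln2), which binds fibrillin and other proteins of vessel walls and basement membranes, stood at 42.7 and 40.7 after 8 weeks and at 35.9 and 30.9 after 16 weeks. The groups did not overlap, and the difference was small, -0.32 ± 0.24. Lysyl oxidase (Lox), the cross-linking enzyme, was close to the floor on its only tested probe set, at 16.4 and 12.9 against 12.1 and 23.4. The groups overlapped, the 16-week samples held both the lowest and the highest value, and the difference was 0.21 ± 0.39. Without 16-week sample 2 it was -0.26, so that sample set its sign. The other Lox probe set read between 2.3 and 9.5, under the floor on all 4 arrays.

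**Figure D1:**
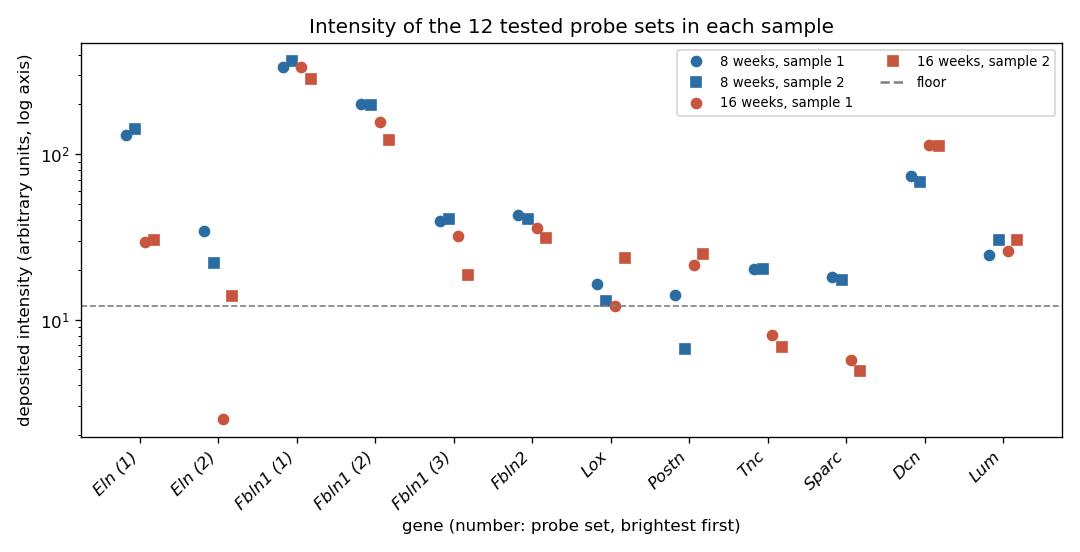
Deposited intensity (log axis, arbitrary units) of the 12 tested probe sets in each of the 4 samples; colours mark the groups, symbols the samples, and the dashed line the floor of 12.15. Eln (1) lies at 130 and 142 at 8 weeks against 29.5 and 30.1 at 16 weeks, while Dcn lies higher at 16 weeks and Lum overlaps.

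Among the matricellular genes, tenascin C and SPARC read lower at 16 weeks and periostin higher, all on dim probe sets. Tenascin C (Tnc), a large glycoprotein made around wounds and tumours, gave 20.1 and 20.3 in the 8-week samples and 8.1 and 6.8 in the 16-week samples. Both 16-week values were under the floor, so the intensity was at least 1.66-fold lower (-0.73 ± 0.23). SPARC (Sparc), a collagen-binding protein with a part in matrix assembly, read 18.2 and 17.3 against 5.7 and 4.9, at least 1.46-fold lower (-0.55 ± 0.23). Both genes passed the filter on dim probe sets through their 8-week samples alone, so as tested genes they had to read lower at 16 weeks. These sizes depend on the floor: with a lower floor of 5.05 the difference was -1.44 for Tnc and -1.73 for Sparc. A second Tnc probe set stayed under the floor on all arrays, between 1.2 and 5.7.

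Periostin (Postn), secreted by fibroblasts and promoting collagen cross-linking, gave 14.0 and 6.6 in the 8-week samples against 21.4 and 24.9 in the 16-week samples. Both 16-week samples exceeded both 8-week samples, with 8-week sample 2 under the floor. The difference was 0.82 ± 0.25, a lower bound, or 1.77-fold, and 1.26 with the lower floor.

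The collagen-binding proteoglycans gave different readings, decorin higher at 16 weeks and lumican about level. Decorin (Dcn) stood at 73.3 and 68.1 after 8 weeks and at 114 and 111 after 16 weeks. The groups did not overlap and the pairs within them were tight, with sample 2 below sample 1 by 0.11 and 0.04 on the log2 scale. The difference was 0.68 ± 0.23, a 1.60-fold higher intensity at 16 weeks. Lumican (Lum), a relative of decorin with a keratan sulphate chain in some tissues, read 24.5 and 30.1 against 26.1 and 30.2. Its groups overlapped almost fully and the difference was 0.05 ± 0.26, with a sign that changed without 8-week sample 1 (-0.10) or 16-week sample 2 (-0.06). Each proteoglycan had 1 probe set, so no second reading was at hand.

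Taking 1 probe set per gene, the brightest tested, 5 of the 9 genes read lower at 16 weeks (Eln, Fbln1, Fbln2, Tnc and Sparc) and 4 higher (Lox, Postn, Dcn and Lum). The median difference was -0.19, while over all 5864 tested genes it was 0.07 and 44.7% were lower. No member passed limma's test over all tested probe sets with Benjamini-Hochberg adjustment at 0.05. Nor did any other probe set: 0 of 7883 were called, which is 0% in each direction, and 1100 had an unadjusted p under 0.05. Unadjusted, 3 member probe sets were lower (both of Eln and Tnc), against 5.87% of all tested, and 2 higher (Postn and Dcn), against 8.08%. In 8 member probe sets the 16-week samples lay wholly below the 8-week samples, against 20.6% of all tested, and in 2 wholly above, against 28.7%. Since the members were chosen on this contrast, and the filter set the direction of Tnc and Sparc, nothing is read from these counts and shares. Dim probe sets as a whole read higher at 16 weeks: the median difference was 0.20 in the dimmest of 3 equal parts of the tested probe sets, 0.14 in the middle part and -0.08 in the brightest. Postn, Lox, Tnc and Sparc lie in the dimmest part, as does the dimmer Eln probe set.

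**Figure D2:**
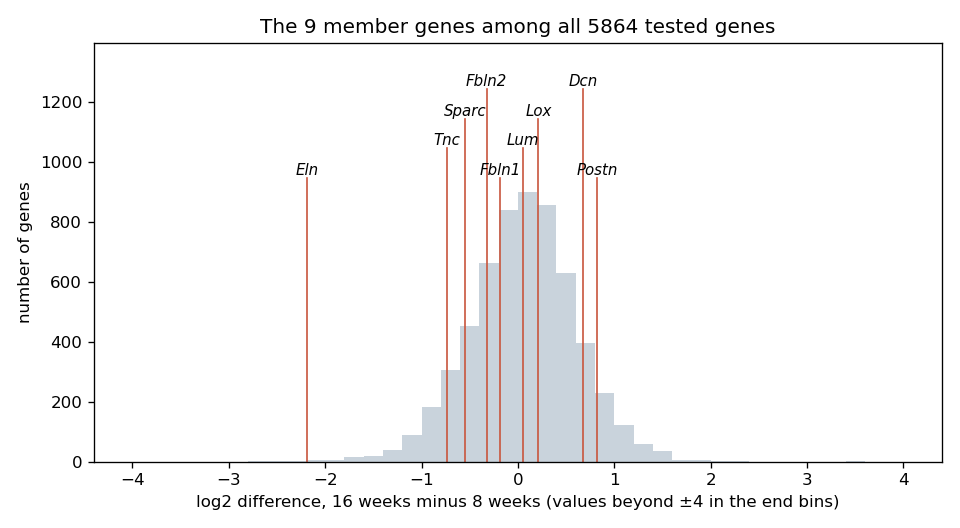
Number of tested genes (5864, brightest tested probe set each) by log2 difference, 16 weeks minus 8 weeks, in grey, with a red line at each of the 9 member genes. Eln at -2.19 lies in the far lower tail, and the other 8 genes lie between -0.73 and 0.82.

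How the arrays are scaled to each other shifts every difference. With quantile normalization the median over all genes moved from 0.07 to 0.02, with the arrays on a common median to -0.13, and with alignment on the bacterial hybridisation controls to 0.37. Elastin stayed between -2.41 and -1.86 on its brighter probe set under these 3 scalings, decorin between 0.45 and 1.0, and periostin between 0.64 and 1.08. The direction of tenascin C and SPARC was set by the filter and is not judged by these scalings. Fibulin 1 on its brightest probe set turned positive with quantile normalization (0.05) and with the hybridisation controls (0.14), its other 2 tested probe sets did not, and fibulin 2 came to 0.00 with the hybridisation controls. Lumican turned negative with quantile normalization (-0.09) and on a common median (-0.17). Relative to the median of all genes, elastin was -2.26 as deposited and -2.24 with quantile normalization, and decorin 0.60 and 0.68. The other 2 scalings add 1 constant per array, which this subtraction largely removes.

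**Figure D3:**
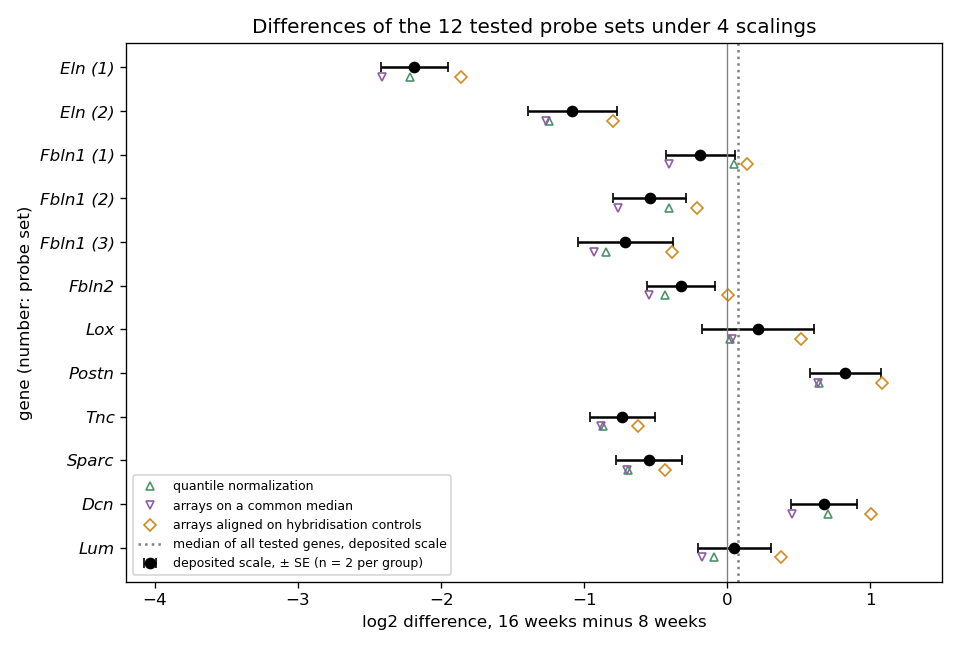
Log2 difference of the 12 tested probe sets, 16 weeks minus 8 weeks, on the deposited scale (black, ± SE, n = 2 per group) and under 3 other scalings (open symbols); the dotted line is the median of all tested genes, 0.07. Eln, Postn and Dcn keep their side of 0, as do Tnc and Sparc, whose direction the filter set, while Fbln1 (1), Fbln2 and Lum cross or reach it.

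Other genes of the same families were set beside the members: 64 names, of which 33 had a probe set and 21 were tested. The test called none of the 21 (smallest limma adjusted p = 0.301), and 7 were lower and 14 higher. Their median was 0.20, against 0.07 for all genes, and on a common median of the arrays it was -0.02, with 11 of 21 lower. Of the 7 tested elastic fibre genes 6 were higher, among them Ltbp3 (0.03), which turned negative with quantile normalization and on a common median. Microfibril-associated glycoprotein 2 (Mfap5), a fibrillin-binding protein, gave 13.8 and 17.5 after 8 weeks and 29.5 and 31.8 after 16 weeks (0.98 ± 0.26, limma adjusted p = 0.309). Its second probe set, not tested, went the other way, at 10.2 and 18.9 against 2.2 and 4.9. The latent TGF-beta binding protein Ltbp4, which also takes part in elastin assembly, was the 1 gene that read lower, at 181 and 131 against 96.2 and 88.6 (-0.74 ± 0.27). Ltbp2, a fibrillin-binding member of the same family, read 4.3 and 20.8 against 27.4 and 24.7 (0.71 ± 0.34, a lower bound since 8-week sample 1 was under the floor). The lysyl oxidase relative Loxl1, which acts on elastin, overlapped between groups (0.51 ± 0.35).

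Of the 11 other matricellular genes tested, 4 were lower and 7 higher, and 4 of the 11 (Spock2, Smoc2, Ccn5 and Ibsp) changed sign under a scaling. The gene with the smallest p was Tgfbi, a TGF-beta-induced protein that shares its fasciclin domains with periostin. Its intensity was 33.2 and 33.6 at the earlier stage and 14.2 and 14.3 at the later, a difference of -1.23 ± 0.23 (limma adjusted p = 0.301), opposite in sign to periostin. Tenascin X (Tnxb), which like tenascin C is a tenascin but organises collagen fibrils, read 56.5 and 71.4 against 35.2 and 32.9 (-0.90 ± 0.25). Its dimmer probe set gave 0.13 ± 0.60. Thrombospondin 3 (Thbs3) read 38.6 and 18.5 against 7.6 and 8.9, at least 2.20-fold lower. Ccn4, a Wnt-induced matricellular protein, read 6.9 and 6.8 against 19.2 and 16.1, at least 1.45-fold higher. Thbs3 and Ccn4 had both samples of their lower group under the floor. They passed the filter through their other group alone, so the filter set their direction, although both are in the counts above.

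Among the other small leucine-rich proteoglycans 3 genes were tested. Osteoglycin (Ogn) gave -0.47 ± 0.25, a lower bound in size with 16-week sample 1 under the floor, and chondroadherin (Chad) 0.27 ± 0.23. Biglycan (Bgn), the closest relative of decorin, had probe sets that disagreed: 88.8 and 86.8 against 86.3 and 64.8 on the brighter (-0.23 ± 0.26, and 0.10 with the hybridisation controls) and 61.5 and 57.9 against 84.4 and 94.3 on the other (0.58 ± 0.24).

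**Figure D4:**
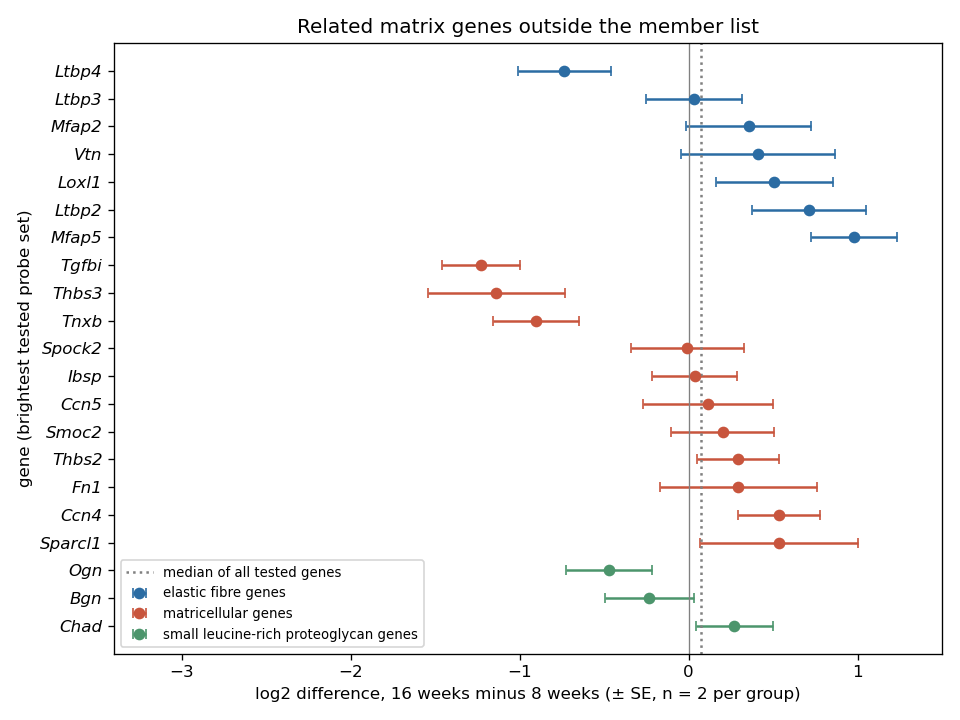
Log2 difference, 16 weeks minus 8 weeks (± SE, n = 2 per group), of the 21 tested related genes by family, each on its brightest tested probe set; the dotted line is the median of all tested genes, 0.07. Elastic fibre genes other than Ltbp4 lie above 0 on the deposited scale (Ltbp3 at 0.03 turned negative under 2 other scalings), and Tgfbi, Thbs3 and Tnxb have the most negative values. The filter set the direction of Thbs3 and Ccn4.

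Of the cells that make these proteins, markers of smooth muscle and of fibroblasts summed to less at 16 weeks, and those of endothelium did not. The fibroblast sum depended on Col3a1 and on which probe set stood for Col1a2. The intensities of 11 smooth muscle genes summed to 3704 and 3204 at 8 weeks and 1931 and 1944 at 16 weeks, a ratio of 0.561 between the group means. Of the 10 tested, 8 were lower, with a median difference of -0.75, and 1 (Des) changed sign under a scaling. Without its brightest gene, Actg2, the sum's ratio was 0.586. Those of 13 fibroblast genes summed to 3650 and 3084 against 2319 and 2276, a ratio of 0.682, with 8 of 12 tested genes lower, a median difference of -0.18 and 5 genes that changed sign under a scaling. Col3a1 read 1949 and 1280 against 586 and 509. The other 12 genes summed to 1701 and 1804 against 1734 and 1767, a ratio of 0.999. That level sum includes the brighter Col1a2 probe set, at 540 and 852 against 950 and 1001 (0.52). The second Col1a2 probe set, outside the sum, read 185 and 96.8 against 50 and 27 (-1.86). Pdgfra on its brighter probe set also read lower (-1.10 ± 0.30), so Col3a1 was not the only bright marker to do so. The dimmer tested Pdgfra probe set went the other way, at 49.3 and 51.1 against 57.4 and 63.2 (0.26 ± 0.23). Of the tested fibroblast genes, 4 read higher. The sum of 10 endothelial genes was 207 and 241 against 250 and 237, a ratio of 1.09, with 5 of 8 tested genes higher and 1 (Eng) that changed sign. Among the 5 was Tek, at 8.7 and 10.8 against 16.2 and 15.4. It passed the filter through its 16-week samples alone, so the filter set its direction. The smooth muscle ratio and the full fibroblast ratio stayed under 1 under the 3 other scalings (0.478 to 0.706 for smooth muscle, 0.581 to 0.858 for fibroblasts), and the endothelial ratio ranged from 0.934 to 1.37.

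Elastin relative to its 8-week mean was 0.217 and 0.221 at 16 weeks, while the smooth muscle sum was 0.559 and 0.563. The fibroblast sum stood at 0.689 and 0.676 with Col3a1. A single muscle gene, smoothelin (Smtn), an actin-associated protein of contractile cells, differed by more than elastin, -2.50 ± 0.30, with 157 and 104 against 24.1 and 21.2. The part of smooth muscle or fibroblasts in the difference of elastin was not tested. The mesothelial list, of 4 genes, summed to 129 and 114 against 107 and 107. That lower sum is of keratin 19 (Krt19, -1.19 ± 0.31), whose dimmer probe set overlapped between groups (-0.49 ± 0.34). Wt1 read higher (1.11 ± 0.27, a lower bound with 8-week sample 2 under the floor), as did Upk3b (0.84 ± 0.25). Without Krt19 the ratio was 1.75. Of 7 skin or cartilage genes, 4 were under the floor on all arrays (Acan, Col2a1, Matn1 and Krt5). All 7 summed to 156 and 145 against 179 and 176. Most of that sum was Col9a1, a bright probe set at 117 and 91.4 against 112 and 103. Among fibroblast markers Thy1, among endothelial markers Vwf and Cldn5, and among mesothelial markers Msln were under the floor on all arrays. The 11 gastric mucosa genes summed to 12498 and 14764 against 12227 and 11182, a ratio of 0.859. That ratio was 0.738 on a common median of the arrays, 1.03 with quantile normalization and 1.08 with the hybridisation controls.

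**Figure D5:**
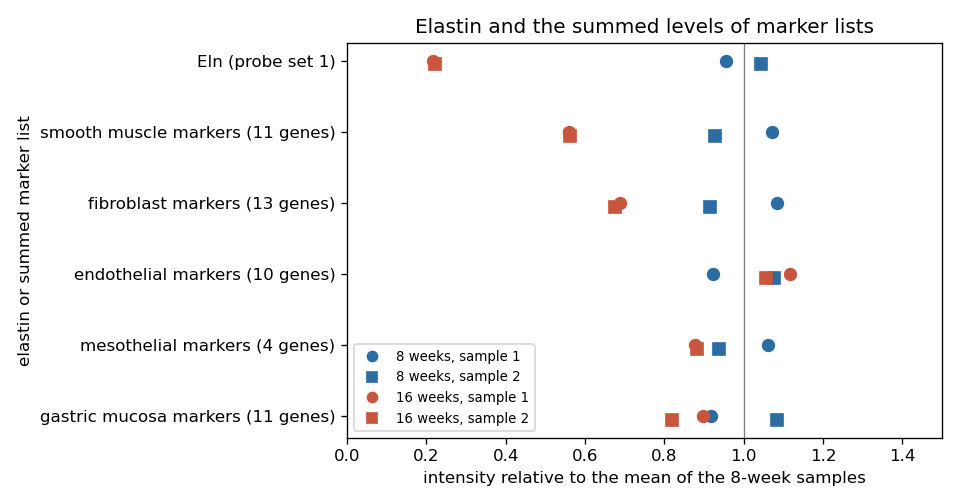
Intensity of Eln (its brighter probe set) and summed intensity of 5 marker lists in each sample, relative to the mean of the 8-week samples. At 16 weeks Eln stands at 0.217 and 0.221, the smooth muscle sum at 0.559 and 0.563, and the endothelial sum at 1.12 and 1.06.

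The genes whose log2 profile over the 4 samples lay closest to that of elastin, by root mean square distance after each was centred on its own mean, were Rara, a retinoic acid receptor, Rps4l, a ribosomal protein gene, Acaa1b, a peroxisomal thiolase, Sbds, a ribosome maturation factor, and Babam2, a subunit of a deubiquitinating complex. Their distances ran from 0.024 to 0.27 log2 units and their Pearson correlations with elastin from 0.986 to 1.0, over 4 samples that share the same 4 arrays. Rara gave 61.1 and 68.5 after 8 weeks and 14.1 and 13.9 after 16 weeks, a difference of -2.21 ± 0.23. Babam2 read 38.5 and 38.2 against 6.2 and 9.4, both under the floor. It was thus tested through its 8-week samples alone, and the floor shaped its profile. None of the 5 is a member. In this order of the 5864 genes Tnc ranked 267, Sparc 594, Fbln2 1157 and Fbln1 1577. Tnc and Sparc too were tested through their 8-week samples alone, and the floor shaped their profiles, so nothing is read from their ranks. Lum ranked 2592, Lox 3822, Dcn 5052 and Postn 5351.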

How the data were processed

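The table holds the authors' deposited intensity of 12488 probe sets in each of 4 samples, linear and never below 0. Its computation and scaling are not given in the sources used here. Trimmed means of the arrays lay within 4.66% of their common mean, so the deposited scale was kept. Groups came from the labels. Numbers 1 and 2 only name samples. Values were floored at the median of the arrays' 40th percentiles, log2 was taken, and probe sets exceeding it on 2 or more arrays were tested with limma 3.58.1 (R 4.3.3; lmFit, eBayes, 2-sided, Benjamini-Hochberg adjusted p under 0.05), after a test on simulated data. The smallest 2-sided p of an exact permutation test in this design is 0.333. Each gene's value is that of its brightest tested probe set. Named were all members, the 4 genes with the smallest p in each related list and the 5 genes nearest elastin. Also named were up to 3 of the brightest markers of a cell type and markers under the floor. Smtn, Tek and sums without a list's brightest gene were added after their values were seen. So were second probe sets of related genes, Col1a2, Pdgfra and Krt19. Members and lists were chosen with earlier results of these data known. Summed levels add the brightest probe set of each marker. Alternatives were other scalings, floors, filters, a pseudocount, a replicate block, an intensity trend, fewer probe sets and each sample left out. No genome or sequence was used here.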

Additional observations from a re-analysis of the deposited data

How the results depend on the processing

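With all 4 samples in the fit, no probe set was called under any alternative except without the filter on dim probe sets, where 22 of 12422 were. Of those 12422 probe sets, 3323 lay at or under the floor on every array and so had no spread. Among the 22 was 1 member probe set, of Tnc (limma adjusted p = 0.0371). Both its 16-week values were set to the floor and so had no spread either. The member median of -0.19 was -0.32 when each gene's probe sets were averaged, -0.0901 with quantile normalization, -0.41 on a common median, 0.14 with the hybridisation controls and -0.26 without lettered probe sets, and -0.30 to -0.13 with a sample left out. Of 9 member genes 5 were lower, but 6 on a common median, 3 with the hybridisation controls, 3 of 5 with a higher floor, and 5 to 7 with a sample left out. The median of the related genes, 0.20, was 0.0735 with quantile normalization, -0.0213 on a common median, 0.49 with the hybridisation controls, 0.27 with a lower and 0.0304 with a higher floor, 0.0543 without the filter, 0.28 without lettered probe sets, and 0.0252 to 0.26 with a sample left out. The causes of these shifts, other than fewer or more genes tested, were not tested. With a sample left out the sign of Lox changed without 16-week sample 2 (-0.26) and that of Lum without 8-week sample 1 (-0.10) or 16-week sample 2 (-0.06); Eln on its brighter probe set stayed between -2.25 and -2.12, while Fbln1 ranged from -0.30 to -0.07, -0.72 to -0.36 and -1.09 to -0.33 on its 3 tested probe sets and the dimmer Eln probe set from -1.41 to -0.76. With the replicate number as a block 0 probe sets were called and the member median was -0.19; deviations of same-numbered samples correlated at -0.05 over tested probe sets, and the labels give the numbers no meaning. Signal near the floor limits Lox, Postn, Tnc and Sparc: with the lower floor Postn, Tnc, Sparc and the dimmer Eln probe set were 1.26, -1.44, -1.73 and -1.72.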
